A study of Mus musculus with 36 samples.

Results

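Hemoglobin transcripts and their erythroid partners were followed through 8 genes of the deposited expression table: the adult globins Hba-a1, Hbb-bs and Hbb-bt, the embryonic globins Hbb-y, Hbb-bh1 and Hba-x, the heme enzyme gene Alas2 and the red cell anion exchanger gene Slc4a1. They were taken by gene symbol alone, and all 8 symbols were found, 8 of 18845 genes in the table. The RNA came from a purification with an antibody tag (HA) carried by a ribosomal protein in animals with Cre. Libraries of those animals hold tagged ribosome-bound RNA together with whatever RNA the purification carries along. Libraries of ChAT-Cre;Ribo-tag diaphragm (Cre-positive; a muscle preparation that the labels call enriched for synapses) were set against Ribo-tag diaphragm without Cre (Cre-negative) and against ChAT-Cre;Ribo-tag spinal cord. Each was sampled before birth at E15.5, after birth at P0.5 and P10 (all in days) and at 2 months (adult), with 3 libraries in each of 12 groups. Every animal carried the Ribo-tag allele, in which Cre switches the ribosomal protein Rpl22 to its HA-tagged form. By this design Cre-negative libraries hold no tagged ribosomes, only RNA that the purification carries along. ChAT-Cre is driven from the gene of choline acetyltransferase, which is active in cholinergic neurons such as motor neurons. Spinal cord without Cre was not analysed here, so the level that the purification carries along is measured only in diaphragm.

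Hemoglobin is a tetramer of α-like and β-like globin chains, each holding a heme. In mice the first red cells, born in the yolk sac, make embryonic chains: Hba-x encodes the ζ chain, Hbb-y and Hbb-bh1 encode the εy and βh1 chains. Red cells from the fetal liver and later the bone marrow make mainly adult chains. Alas2 encodes the erythroid 5-aminolevulinate synthase, which starts heme synthesis, and Slc4a1 encodes band 3, the main membrane protein of the red cell. Young red cells (reticulocytes) still hold globin mRNA after they have lost their nucleus.

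The values are in CPM, reads per 1000000 reads of the table. CPM is not corrected for gene length, so levels are compared here between libraries and not between genes. Depth was 86.0 to 107 M reads (M, 1000000) in Cre-positive diaphragm, 68.2 to 93.7 M in Cre-negative diaphragm and 63.7 to 71.8 M in spinal cord, and 3 reads, the floor used below for a gene at 0, corresponded to 0.0280 to 0.0471 CPM. In each group the library nearest to a mixture of the other pair was singled out. A blend of their CPM values, with weights adding up to 0.9991 to 0.9996, came close to it. It is called the intermediate library. It was replicate 3 in 9 of 12 groups and replicate 2 in Cre-negative diaphragm at E15.5. It was replicate 1 in Cre-positive diaphragm at P0.5 and in adult Cre-negative diaphragm. In Cre-positive diaphragm at P0.5 the weights were 0.0345 for replicate 2 and 0.965 for replicate 3. There replicate 1 was thus close to replicate 3 alone, rather than a mixture of both. The adult globins of the intermediate library stood at 0.934 to 1.12 of the blend. Genes at low levels strayed further in some of these libraries. Hbb-bh1 at E15.5 stood at 1.54 in Cre-negative diaphragm and 0.386 in spinal cord, and Hba-x at 2.54 in Cre-positive diaphragm at P0.5. Calls are therefore given with and without these libraries. The labels do not say that the libraries of a group come from separate animals, so a p-value measures the spread between these libraries. The marker genes went with the labelled tissues: 7 skeletal muscle genes summed at E15.5 to 26728 to 32052 CPM in Cre-positive diaphragm, and to more at every later age, against 792 to 1603 CPM in spinal cord at E15.5, while 8 neuronal genes summed to 20.4 to 36.2 CPM in Cre-positive diaphragm against 5546 to 5706 CPM in spinal cord at that age. Between Cre-positive and Cre-negative diaphragm at E15.5 the single neuronal genes went both ways by group mean. Chat itself was at 0 in every Cre-negative diaphragm library and in every Cre-positive one at P0.5.

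By the RefSeq annotation of GRCm38.p6, the mm10 assembly, the α-like genes lie together on chromosome 11, Hba-x at chr11:32276600-32278116 and Hba-a1 at chr11:32283672-32284486. The β-like genes lie on chromosome 7, with Hbb-bt at chr7:103812524-103813923, Hbb-bs at chr7:103826523-103827928, Hbb-bh1 at chr7:103841638-103843162 and Hbb-y at chr7:103851754-103853207. Slc4a1 lies at chr11:102348820-102365281 and Alas2 at chrX:150547417-150570622. The 250 bases before the start of 5 globin genes are shown because the genes of each cluster differ in the age at which they were found: Hba-x and Hba-a1 as the embryonic and the adult α-like gene, Hbb-y as the embryonic β-like gene, and Hbb-bs and Hbb-bt as the adult β pair whose proportions shifted with age. Capitals mark matches, on either strand, to CCACACCC, AGATAA or CCAAT. CCACACCC is a CACCC box, the kind of site the erythroid factor Klf1 binds. AGATAA is a form of the GATA site bound by Gata1, and CCAAT is the CCAAT box. Only these exact letters of the 3 motifs were searched, so an unmarked window can still hold another form of such a site.
Hba-x: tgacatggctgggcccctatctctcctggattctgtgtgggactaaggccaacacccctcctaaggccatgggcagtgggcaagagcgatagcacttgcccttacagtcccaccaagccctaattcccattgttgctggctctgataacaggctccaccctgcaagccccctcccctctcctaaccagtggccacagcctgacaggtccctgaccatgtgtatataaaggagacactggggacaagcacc
Hba-a1: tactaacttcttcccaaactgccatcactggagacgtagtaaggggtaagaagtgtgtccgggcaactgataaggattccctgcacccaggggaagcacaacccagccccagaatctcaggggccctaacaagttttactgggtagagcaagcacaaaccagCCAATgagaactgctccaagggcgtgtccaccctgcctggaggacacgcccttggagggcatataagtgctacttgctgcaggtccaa
Hbb-y: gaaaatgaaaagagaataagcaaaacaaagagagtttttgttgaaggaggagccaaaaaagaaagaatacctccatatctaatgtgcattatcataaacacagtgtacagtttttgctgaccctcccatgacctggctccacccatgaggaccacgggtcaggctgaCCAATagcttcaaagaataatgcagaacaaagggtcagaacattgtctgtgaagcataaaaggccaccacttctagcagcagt
Hbb-bs: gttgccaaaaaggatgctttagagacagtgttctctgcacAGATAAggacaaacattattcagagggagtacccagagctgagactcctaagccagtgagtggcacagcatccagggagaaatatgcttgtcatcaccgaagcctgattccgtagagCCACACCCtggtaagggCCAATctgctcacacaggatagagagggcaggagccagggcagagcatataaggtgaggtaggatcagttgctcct
Hbb-bt: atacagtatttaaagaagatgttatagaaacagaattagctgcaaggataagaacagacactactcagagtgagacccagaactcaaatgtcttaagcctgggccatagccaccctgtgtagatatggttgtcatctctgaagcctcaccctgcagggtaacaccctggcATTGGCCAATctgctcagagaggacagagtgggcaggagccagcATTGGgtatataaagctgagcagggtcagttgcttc
These windows are chr11:32276350-32276599 (plus strand), chr11:32283422-32283671 (plus), chr7:103853208-103853457 (minus), chr7:103827929-103828178 (minus) and chr7:103813924-103814173 (minus), each printed 5′ to 3′ along its gene. Hbb-bs held all 3 motifs, with the CACCC box beginning 93, the GATA site 210 and the CCAAT box 76 bases before the start. Its neighbour Hbb-bt held 3 CCAAT boxes and neither of the other motifs, and 2 of the 3 lie side by side on opposite strands without overlap. Hba-a1 and Hbb-y each held 1 CCAAT box, 88 and 83 bases before the start, and Hba-x held none of the 3 motifs in these letters. The window of Alas2 held a GATA site on the minus strand. Among 32851 promoter windows of the same length, 3.20% held the CACCC box, 9.99% the GATA site and 33.8% the CCAAT box. A match is a string of letters and says nothing of binding in these samples. Promoters of 6 of the 8 genes were found in the RefSeq table, all but those of Hbb-bh1 and Slc4a1.

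The first question was how the adult globins moved with age in diaphragm. They were highest before birth, fell more than 10-fold by P0.5, were higher again at P10 and lower in the adult. Hba-a1, the adult α chain, had 48034, 82667 and 54319 CPM in the 3 Cre-positive libraries at E15.5, 3260.0, 5275 and 3048 CPM at P0.5, 11598, 8849.7 and 10892 CPM at P10 and 8472, 4384 and 5364 CPM in the adult. In Cre-negative diaphragm it had 44444, 46564 and 46534 CPM at E15.5, 2471, 2334 and 2452 CPM at P0.5, 13641, 8932 and 11918 CPM at P10 and 7336, 6394 and 7571 CPM in the adult. Within both genotypes the 3 libraries of one age did not overlap with those of the next. For this and later comparisons of neighbouring ages, the share of all genes that kept apart is not given. Such a lack of overlap is therefore only a description. Hbb-bs, an adult β chain, had 30075, 48111 and 33886 CPM in Cre-positive libraries at E15.5, 1713, 3203 and 1598 CPM at P0.5, 10521, 9847 and 10633 CPM at P10 and 6907, 3430.2 and 4234 CPM in the adult. In Cre-negative diaphragm Hbb-bs had 29535, 29486 and 29116 CPM at E15.5, 1583, 1282 and 1331 CPM at P0.5, 13261, 8448 and 11558 CPM at P10 and 5787, 5290.2 and 6104 CPM in the adult. Its libraries, too, kept apart between neighbouring ages in both genotypes. Hbb-bt, the other adult β chain, had 21352, 34746 and 23622 CPM in Cre-positive libraries at E15.5, 658, 1454 and 679 CPM at P0.5, 2447, 2147 and 2328 CPM at P10 and 1166, 640.2 and 882 CPM in the adult. In Cre-negative diaphragm Hbb-bt had 18727, 19570.2 and 20356 CPM at E15.5, 317, 601 and 533 CPM at P0.5, 2987, 2032 and 2639 CPM at P10 and 1309.7, 1130.2 and 1404 CPM in the adult. In Cre-positive diaphragm the P0.5 and adult libraries overlapped for Hba-a1 and Hbb-bt, and for Hbb-bs they did not. The 6 globin genes together took 12.6 ± 3.51% of a Cre-positive library and 9.48 ± 0.182% of a Cre-negative one at E15.5 (mean ± SD, n = 3 each). At P0.5 these shares were 0.696 ± 0.258% and 0.4301 ± 0.00782%. Counting all 8 genes and 3 near-identical globin copies, Hba-a2 among them, the shares at E15.5 were 16.4 ± 4.60% and 12.2 ± 0.322%.

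**Figure D1:**
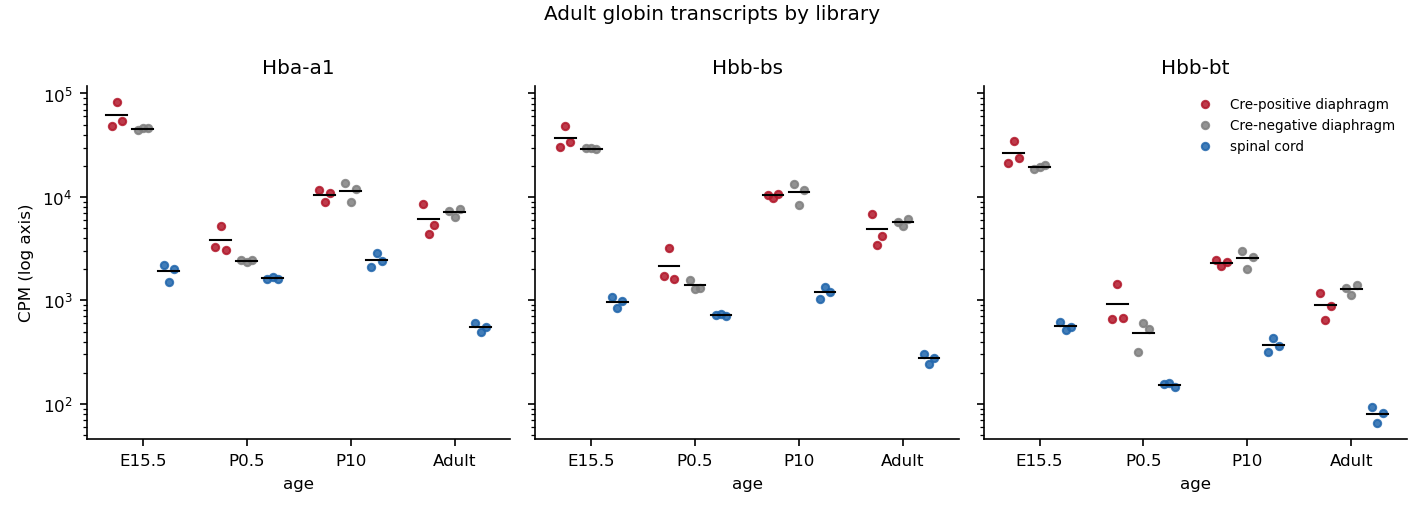
Levels of Hba-a1, Hbb-bs and Hbb-bt in CPM (log axis) at 4 ages, with 1 point per library, colours for Cre-positive diaphragm, Cre-negative diaphragm and spinal cord, and a bar at each group mean of 3 libraries. By group mean, diaphragm is highest at E15.5 and lowest at P0.5 for each gene except Hbb-bt in Cre-positive diaphragm, which is lowest in the adult, and spinal cord libraries lie below those of both diaphragm genotypes at every age.

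The filter on low values (1 CPM in at least 3 libraries of the fit) was passed by all 8 genes. Between E15.5 and P0.5 all 8 fell, in Cre-positive and in Cre-negative diaphragm alike. Hbb-y and Hbb-bh1 reached 1 CPM in diaphragm at E15.5 alone, and Hba-x there and in 1 library at P0.5. They passed the filter through the age where they were high, so their falls, also within the median below, were nearly fixed in advance. Genes called lower made up 18.0% of all genes tested in Cre-positive and 30.2% in Cre-negative diaphragm. Hba-a1 was 15.97-fold lower at P0.5 than at E15.5 in Cre-positive diaphragm (log2 difference -4.00, SE 0.22, limma adjusted p = 2.02e-11) and 18.95-fold lower in Cre-negative diaphragm (adjusted p = 5.30e-12). Hbb-bs was lower by 17.2-fold in Cre-positive and 21.00-fold in Cre-negative diaphragm (adjusted p = 3.11e-11 and 7.41e-12). Hbb-bt was lower by 28.6-fold and 40.4-fold (adjusted p = 1.99e-11 and 3.22e-12). The median log2 difference of the 8 genes was -4.37 in Cre-positive and -4.89 in Cre-negative diaphragm, against -0.41 and -0.32 over all genes tested. In bulk RNA, fewer red cells and less globin RNA per red cell cannot be told apart. With the intermediate libraries left out, 7 of the 8 falls held in each genotype, where 2.14% and 10.5% of all genes were called lower, and the call was lost for Hba-x in Cre-positive diaphragm (adjusted p = 0.104) and for Hbb-bh1 in Cre-negative diaphragm (adjusted p = 0.501).

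From P0.5 to P10 the 3 adult globins and Alas2 rose in both genotypes, 4 of 8 genes, while 9.33% of all genes were called higher in Cre-positive and 20.3% in Cre-negative diaphragm. Hba-a1 rose 2.71-fold, Hbb-bs 4.76-fold and Hbb-bt 2.48-fold in Cre-positive diaphragm (adjusted p = 8.85e-05, 6.33e-07 and 0.000965). In Cre-negative diaphragm the rises were 4.75-fold, 7.93-fold and 5.28-fold (adjusted p = 2.14e-07, 1.01e-08 and 8.99e-07). Without the intermediate libraries all 4 calls held in Cre-negative diaphragm (4.04% of all genes). In Cre-positive diaphragm (0.599% of all genes) that of Hbb-bs held (adjusted p = 0.00344) and the other 3 did not, with Hba-a1 at an adjusted p of 0.0513. From P10 to the adult the 3 adult globins fell in both genotypes, beside 15.1% of all genes called lower in Cre-positive and 17.5% in Cre-negative diaphragm. Hba-a1 fell 1.72-fold, Hbb-bs 2.13-fold and Hbb-bt 2.57-fold in Cre-positive diaphragm (adjusted p = 0.01102, 0.00142 and 0.000776). The falls in Cre-negative diaphragm were 1.62-fold, 1.94-fold and 1.99-fold (adjusted p = 0.0285, 0.00604 and 0.0104). The fall of Hba-a1 was also lost without adult replicate 2 in Cre-positive diaphragm (adjusted p = 0.078). In Cre-negative diaphragm it was lost in 4 of the 6 fits that left out 1 library, P10 replicate 1 or 3 or adult replicate 1 or 2 (adjusted p 0.0601 to 0.132), and that of Hbb-bt without P10 replicate 1 (adjusted p = 0.0524). None of these 6 falls held without the intermediate libraries, where the adjusted p lay at 0.0739 or above and 1.36% of all genes in Cre-positive and 2.0% in Cre-negative diaphragm were called lower.

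In spinal cord the adult globins took another course over the same ages. Hba-a1 was highest at P10 and lowest in the adult. It had 2208, 1516 and 1999 CPM at E15.5, 1605, 1685 and 1603 CPM at P0.5, 2092, 2847 and 2424 CPM at P10 and 604, 494 and 554 CPM in the adult. The E15.5 and P0.5 libraries overlapped (log2 difference -0.21, SE 0.14, adjusted p = 0.203). Hbb-bs had 1087, 846 and 992 CPM at E15.5, 724, 732 and 710.4 CPM at P0.5, 1037, 1343 and 1215 CPM at P10 and 302, 245 and 277 CPM in the adult. Hbb-bt had 614, 512 and 558 CPM at E15.5, 155, 159 and 146 CPM at P0.5, 314, 438 and 362 CPM at P10 and 92.6, 65.2 and 81.4 CPM in the adult. Every age of Hbb-bt was apart from the next. Of the 6 genes that passed the filter in spinal cord (all but Hbb-bh1 and Slc4a1), 5 fell between E15.5 and P0.5, beside 44.4% of all genes. Hbb-y and Hba-x among them reached 1 CPM in spinal cord at E15.5 alone, so their falls were nearly fixed by the filter. Hbb-bt fell 3.66-fold (adjusted p = 1.09e-07) and Hbb-bs 1.35-fold (adjusted p = 0.00231, and 0.0509 without the intermediate libraries). At P10 the 3 adult globins and Alas2 were higher than at P0.5, Hba-a1 by 1.505-fold, Hbb-bs by 1.66-fold and Hbb-bt by 2.42-fold (adjusted p = 0.00287, 2.22e-05 and 2.34e-06), beside 35.2% of all genes. Without the intermediate libraries the call of Hba-a1 was lost (adjusted p = 0.0553) and the other 3 held, beside 29.6% of all genes. In the adult all 4 were lower than at P10, by 4.46-fold for Hba-a1, 4.36-fold for Hbb-bs and 4.65-fold for Hbb-bt (adjusted p = 1.58e-07, 1.12e-09 and 3.04e-08), beside 44.3% of all genes, and these 4 calls held without the intermediate libraries (32.6% of all genes).

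By group mean the order of Hba-a1 ran from Cre-positive diaphragm at E15.5 (61673 ± 18451 CPM) and Cre-negative diaphragm at E15.5 (45848 ± 1215 CPM) through P10 and adult diaphragm to adult spinal cord (551 ± 54.9 CPM). Neighbours in this order that differed by less than the larger of their SDs were Cre-positive and Cre-negative diaphragm at E15.5, though their libraries did not overlap, Cre-positive and Cre-negative diaphragm at P10 (10447 ± 1427 and 11497 ± 2382 CPM) and in the adult (6074 ± 2134 and 7100.2 ± 623 CPM). The same held for P10 spinal cord (2454 ± 379 CPM) and P0.5 Cre-negative diaphragm (2419 ± 74.4 CPM), and for spinal cord at P0.5 and E15.5 (1631 ± 46.7 and 1908 ± 355 CPM). Near-identical gene copies limit what the single adult globin genes mean, since the counting can split a read between copies. Hba-a2, the second adult α gene, moved with Hba-a1, which made up 57.8% to 63.5% of their sum in the group means. The β copies Hbb-b1 and Hbb-b2 stayed at or below 24.9 and 0.287 CPM.

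The embryonic globins were present at E15.5 and nearly gone from birth on. Hbb-y, the εy chain, had at E15.5 78.4, 41.99 and 70.6 CPM in Cre-positive diaphragm, 39.5, 47.7 and 54.8 CPM in Cre-negative diaphragm and 13.3, 18.9 and 13.9 CPM in spinal cord. The diaphragm groups overlapped with each other, and all their libraries lay above those of spinal cord. From P0.5 on Hbb-y had no read in any diaphragm library, and in spinal cord it had 6, 25 and 0 reads at P0.5, none at P10 and 0, 12 and 0 reads in the adult. Hbb-bh1, the βh1 chain, had at E15.5 5.98, 21.3 and 8.46 CPM in Cre-positive diaphragm, 0, 1.64 and 1.39 CPM in Cre-negative diaphragm and 0.202, 0.298 and 0.0938 CPM in spinal cord, and no read in any library of a later age. Cre-positive libraries stood above both other groups, whose values overlapped. Hba-x, the ζ chain, had at E15.5 17.7, 5.27 and 14.8 CPM in Cre-positive diaphragm, 11.6, 22.4 and 25.4 CPM in Cre-negative diaphragm and 8.34, 10.6 and 9.55 CPM in spinal cord. Cre-positive libraries overlapped with both other groups, and Cre-negative ones lay above those of spinal cord. After birth its reads came from 3 libraries, 0.325, 3.698 and 0 CPM in Cre-positive diaphragm at P0.5, from 32, 318 and 0 reads, and 0.181 CPM from 12 reads in 1 spinal cord library at P10.

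**Figure D2:**
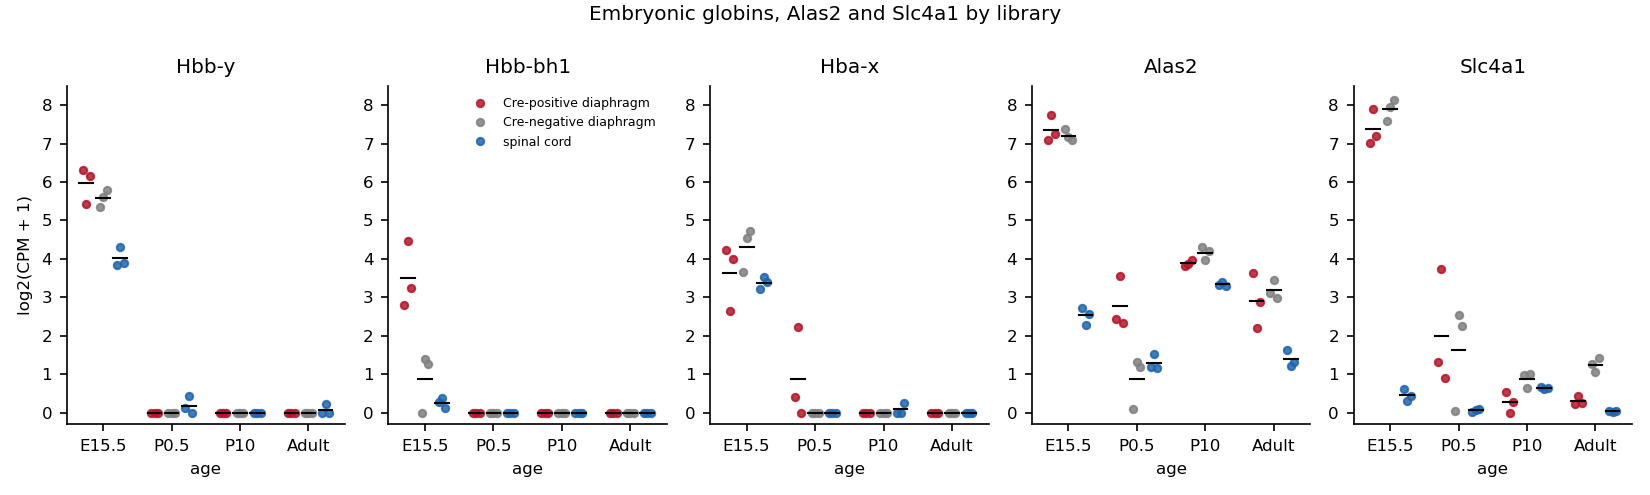
Levels of Hbb-y, Hbb-bh1, Hba-x, Alas2 and Slc4a1 as log2(CPM + 1) at 4 ages, with 1 point per library in the colours of the 3 sample kinds and a bar at each group mean of 3 libraries. The embryonic globins leave the diaphragm panels at P0.5 except for Hba-x in Cre-positive libraries, Alas2 returns at P10, and Slc4a1 stays near 0 from P10 on.

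Against the floor of 3 reads per library, Hbb-y was at least 1997-fold lower at P0.5 than at E15.5 in Cre-positive diaphragm (adjusted p = 6.54e-13) and at least 1176-fold lower in Cre-negative diaphragm (adjusted p = 1.04e-12). In spinal cord it was 106-fold lower (adjusted p = 7.06e-12). Without P0.5 replicate 2 that fold was 358. Hbb-bh1 was at least 373-fold lower in Cre-positive diaphragm (adjusted p = 8.59e-08) and at least 25.1-fold lower in Cre-negative diaphragm (adjusted p = 0.0384). The bound in Cre-positive diaphragm was 227 without E15.5 replicate 2. The call in Cre-negative diaphragm was lost in 5 of the 6 fits that left out 1 library, all but the one without E15.5 replicate 1 (adjusted p 0.0662 to 0.194), with quantile normalization (adjusted p = 0.654) and with RLE size factors (0.0794). Hba-x was 9.401-fold lower in Cre-positive diaphragm (adjusted p = 9.28e-05), at least 492-fold lower in Cre-negative diaphragm (adjusted p = 1.20e-07) and at least 223-fold lower in spinal cord (adjusted p = 2.03e-12). In Cre-positive diaphragm edgeR on the recovered reads did not call the fall of Hba-x (adjusted p = 0.279), and without P0.5 replicate 2 the fold was 77.7.

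The embryonic chains were a far smaller part of the globin RNA in diaphragm than in spinal cord at E15.5. Hbb-y and Hbb-bh1 made up 0.164, 0.0763 and 0.137% of the CPM of the 4 β-like members in Cre-positive diaphragm, 0.0819, 0.1004 and 0.113% in Cre-negative diaphragm and 0.786, 1.39 and 0.896% in spinal cord. The group means were 0.126 ± 0.0449%, 0.0985 ± 0.0158% and 1.03 ± 0.324% (SD, n = 3), so every spinal cord library lay above every diaphragm library while the diaphragm genotypes overlapped. Hba-x made up 0.0368, 0.00637 and 0.0273% of the sum of Hba-x and Hba-a1 in Cre-positive diaphragm, 0.02598, 0.0481 and 0.0545% in Cre-negative diaphragm and 0.376, 0.692 and 0.475% in spinal cord. The same split held for the α side, with spinal cord apart and the diaphragm genotypes overlapping. Only shares between libraries are compared here, since the chains differ in length.

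**Figure D3:**
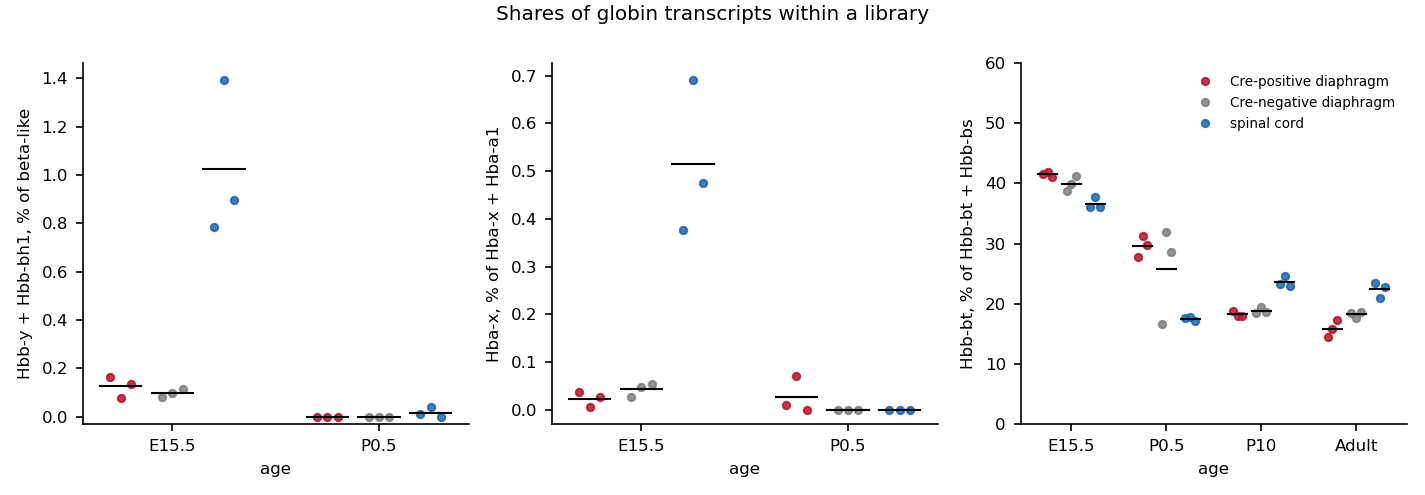
Shares in percent of CPM within a library: Hbb-y and Hbb-bh1 among the 4 β-like members, Hba-x among Hba-x and Hba-a1 (both at E15.5 and P0.5), and Hbb-bt among Hbb-bt and Hbb-bs at 4 ages, with 1 point per library and a bar at each group mean of 3 libraries. Spinal cord stands above diaphragm in the embryonic shares at E15.5, and the Hbb-bt share in diaphragm is highest at E15.5 and lowest in the adult.

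The proportion of the 2 adult β genes shifted with age. In Cre-positive diaphragm Hbb-bt made up 41.5 ± 0.429% of the sum of Hbb-bt and Hbb-bs at E15.5, 29.6 ± 1.74% at P0.5, 18.2 ± 0.541% at P10 and 15.8 ± 1.399% in the adult (mean ± SD, n = 3). In Cre-negative diaphragm the share was 39.9 ± 1.17% at E15.5, 25.7 ± 8.003% at P0.5, 18.8 ± 0.531% at P10 and 18.3 ± 0.576% in the adult. Library ranges in Cre-positive diaphragm did not overlap between neighbouring ages. In Cre-negative diaphragm the P0.5 libraries spread over 16.7, 31.9 and 28.6% and took in the P10 and adult levels. In spinal cord the share was 36.6 ± 0.943% at E15.5, lowest at P0.5 with 17.5 ± 0.381%, and 23.6 ± 0.879% at P10 and 22.4 ± 1.24% in the adult. A read that fits both genes can be split between them by the counting, so these shares rest on how the authors assigned such reads.

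Alas2 and Slc4a1, the 2 erythroid genes outside the globins, parted ways after birth. Both were abundant in diaphragm at E15.5 and fell by P0.5, after which Alas2 returned in part and Slc4a1 did not. In Cre-positive diaphragm Alas2 had 135, 213 and 152 CPM at E15.5, 4.42, 10.7 and 3.99 CPM at P0.5, 13.1, 13.7 and 14.6 CPM at P10 and 11.4, 3.58 and 6.39 CPM in the adult. In Cre-negative diaphragm it had 165, 143 and 135 CPM at E15.5, 0.0587, 1.51 and 1.27 CPM at P0.5, 18.7, 14.6 and 17.4 CPM at P10 and 7.61, 9.98 and 6.94 CPM in the adult. The P0.5 libraries were the lowest in Cre-negative diaphragm, and in Cre-positive diaphragm they overlapped with the adult. Its fall by P0.5 was 26.2-fold in Cre-positive (adjusted p = 6.67e-09) and 156-fold in Cre-negative diaphragm (adjusted p = 2.94e-11). Without P0.5 replicate 2 the fall in Cre-positive diaphragm was 39.7-fold. By P10 it rose 2.16-fold in Cre-positive diaphragm (adjusted p = 0.0459; 0.698 without the intermediate libraries) and 17.8-fold in Cre-negative diaphragm (adjusted p = 1.29e-06). The rise in Cre-positive diaphragm was also lost on leaving out any 1 library of the 2 ages except P0.5 replicate 2, without which it was 3.28-fold (adjusted p 0.0862 to 0.178), and with replicate number as a block (adjusted p = 0.0562). The change from P10 to the adult did not pass the test in either genotype (adjusted p = 0.0707 and 0.0619).

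In Cre-positive diaphragm Slc4a1 had 128, 240.1 and 145 CPM at E15.5, 1.47, 12.4 and 0.849 CPM at P0.5, 0.457, 0 and 0.205 CPM at P10 and 0.1698, 0.355 and 0.196 CPM in the adult. In Cre-negative diaphragm it had 191, 248 and 282 CPM at E15.5, 0.0293, 4.85 and 3.81 CPM at P0.5, 0.968, 0.555 and 1.02 CPM at P10 and 1.39, 1.097 and 1.67 CPM in the adult. At P0.5 the libraries of each genotype spread widely, with replicate 2 the highest in both. The fall by P0.5 was 34.8-fold in Cre-positive (adjusted p = 5.27e-07) and 83.01-fold in Cre-negative diaphragm (adjusted p = 3.07e-08), and no later step passed the test (adjusted p from P0.5 to P10 0.0528 and 0.356). Without the P0.5 replicate 2 of each genotype the falls were 148-fold in Cre-positive and 125-fold in Cre-negative diaphragm. Set against the α globin of the same library, Slc4a1 stood at 2.75 ± 0.135 CPM per 1000 CPM of Hba-a1 in Cre-positive and 5.23 ± 0.888 in Cre-negative diaphragm at E15.5, with no overlap between the genotypes, and at 0.0194 ± 0.0197 and 0.0728 ± 0.0117 at P10. Alas2 stood at 2.73 ± 0.131 and 3.22 ± 0.421 CPM per 1000 CPM of Hba-a1 at E15.5 and at 1.34 ± 0.209 and 1.49 ± 0.135 at P10. From E15.5 to P10 the mean of this measure thus dropped by more than 50-fold for Slc4a1 and by less than 3-fold for Alas2.

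In spinal cord both genes were low throughout. Alas2 had 5.65, 3.85 and 4.94 CPM at E15.5, 1.27, 1.88 and 1.25 CPM at P0.5, 8.98, 9.55 and 8.85 CPM at P10 and 2.102, 1.31 and 1.51 CPM in the adult, with no overlap between neighbouring ages. It fell 3.28-fold by P0.5 (adjusted p = 7.37e-07), rose 6.22-fold by P10 (adjusted p = 1.20e-09) and fell 5.57-fold by adult age (adjusted p = 6.21e-09). Slc4a1 had 0.529, 0.235 and 0.344 CPM at E15.5, 0.0143, 0.0418 and 0.0711 CPM at P0.5, 0.597, 0.531 and 0.558 CPM at P10 and 0.0296, 0.0142 and 0.02896 CPM in the adult, too low to be tested in the spinal cord fit.

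Set against spinal cord of the same genotype, Cre-positive diaphragm held far more hemoglobin RNA at E15.5, and by the ratio of mean CPM the gap of Hba-a1 and Hbb-bs was narrowest at P0.5. Of the 8 genes, 7 were higher in diaphragm at E15.5, 5 at P0.5, 3 at P10 and 4 in the adult, and none was lower. Hbb-bh1 and Slc4a1 stayed under 1 CPM in every spinal cord library. They passed the filter through diaphragm, so a lower call was hardly open to them. Over all genes, 21.5%, 18.4%, 19.9% and 19.5% were called higher in diaphragm at these ages, and 52.1%, 56.9%, 53.1% and 55.3% lower. The median log2 difference of the 8 genes was 4.91, 1.34, 0.27 and 0.89, against -0.58, -0.80, -0.63 and -0.72 over all genes tested. Without the intermediate libraries the number of these genes called was the same at all 4 ages, beside 15.2%, 13.5%, 13.7% and 14.3% of all genes called higher.

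At E15.5 the mean of Hba-a1 was 32.3-fold higher in diaphragm than in spinal cord (log2 difference 4.99, SE 0.24, adjusted p = 1.89e-13). Hbb-bs was 38.3-fold and Hbb-bt 47.3-fold higher (adjusted p = 9.49e-14 and 1.08e-13). The heme enzyme gene Alas2 was 34.7-fold higher (adjusted p = 2.20e-11) and Slc4a1 463-fold (adjusted p = 2.58e-11). The embryonic genes differed less evenly. Hbb-y was 4.15-fold and Hbb-bh1 60.1-fold higher (adjusted p = 6.16e-09 and 2.70e-10), the spinal cord level of Hbb-bh1 resting on 13, 19 and 6 reads. Without E15.5 replicate 2 of Cre-positive diaphragm the fold of Hbb-bh1 was 36.4. Hba-x did not pass the test at E15.5, with a log2 difference of 0.23 (SE 0.40, adjusted p = 0.607).

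After birth Hba-a1 was 2.37-fold higher in diaphragm at P0.5, 4.26-fold at P10 and 11.03-fold in the adult (adjusted p = 0.000128, 1.22e-07 and 6.10e-11). Hbb-bs was 3.01-fold, 8.62-fold and 17.7-fold higher at these ages, and Hbb-bt 6.06-fold, 6.22-fold and 11.2-fold (largest adjusted p = 9.34e-06). Alas2 was 4.35-fold higher at P0.5 and 4.34-fold in the adult (adjusted p = 0.000229 and 0.000172), while at P10 its log2 difference of 0.54 did not pass (adjusted p = 0.118). At P0.5 its fold was 2.87 without Cre-positive replicate 2. Slc4a1 was higher in diaphragm at P0.5 (log2 difference 1.92, adjusted p = 0.000645) and did not pass at P10 or in the adult (adjusted p = 0.463 and 0.598).

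The change of the tissue difference between neighbouring ages was itself tested. From E15.5 to P0.5 the difference became smaller for 7 of the 8 genes, all but Hba-x, beside 26.8% of all genes, and all 7 calls held without the intermediate libraries, beside 7.17%. Hbb-y and Hbb-bh1 among them stayed under 1 CPM in both tissues at P0.5. Their changes thus largely restate the E15.5 difference and were nearly fixed in advance. With edgeR on the recovered reads 5 of the 7 were called, and those of Hbb-bh1 (adjusted p = 1) and Slc4a1 (log2 change -1.97, adjusted p = 0.403) were not. From P0.5 to P10 it became larger for Hba-a1 and Hbb-bs, beside 28.3% of all genes, and smaller for Slc4a1, beside 18.1%. From P10 to the adult it became larger for Hba-a1 and Hbb-bs again, beside 14.3% of all genes. None of these later changes held without the intermediate libraries. The change of Hba-a1 from P0.5 to P10 was also lost in 9 of the 12 fits that left out 1 library, and that of Hbb-bs from P10 to the adult in 7 of 12. The comparisons of neighbouring ages share the libraries of the age between them.

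Between Cre-positive and Cre-negative diaphragm 1 of the 8 genes passed the test at E15.5, 3 at P0.5 and none at the later ages, and no call held without the intermediate libraries. At E15.5, 1 of the 8 genes was higher in Cre-positive diaphragm and none was lower, beside 4.88% and 6.11% of all genes. That gene was Hbb-bh1, 11.8-fold higher in the mean with no overlap between the groups (log2 difference 2.62, SE 0.34, adjusted p = 4.67e-05). Hbb-bh1 passed the filter only through the Cre-positive libraries, where it was high, as the Cre-negative ones alone did not meet it. Its call is therefore only a description. Its fold was 7.14 without Cre-positive replicate 2. Its call was lost without the intermediate libraries (adjusted p = 0.0853; 0.0577% of all genes called higher) and with edgeR on the recovered reads (adjusted p = 0.301). The other embryonic genes did not pass, Hbb-y with a log2 difference of 0.38 (adjusted p = 0.372) and Hba-x with -0.69 (adjusted p = 0.3499). For Hba-a1 the 3 Cre-positive libraries all lay above the Cre-negative ones, as did 16.1% of all genes, and the difference of 0.39 did not pass (adjusted p = 0.278).

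At P0.5, 3 of the 8 genes were higher in Cre-positive diaphragm, beside 12.1% of all genes called higher and 15.7% called lower. Hba-a1 was 1.596-fold, Hbb-bt 1.92-fold and Alas2 6.74-fold higher in the mean (adjusted p = 0.0379, 0.0175 and 0.000883). Hbb-bs, with a log2 difference of 0.57, did not pass (adjusted p = 0.0771), nor did Slc4a1 with 0.36 (-0.52 without Cre-positive replicate 2 and -0.43 without Cre-negative replicate 1; adjusted p = 0.692) or Hba-x with 0.88 (adjusted p = 0.147). Cre-positive replicate 2 held the most Hba-a1, Hbb-bs, Hbb-bt, Hba-x, Alas2 and Slc4a1 of the 3 Cre-positive libraries at this age. Without it the log2 difference was 0.38 for Hba-a1 (adjusted p = 0.223) and 0.52 for Hbb-bt (adjusted p = 0.131), neither of them called. Hba-a1 also lost its call without Cre-negative replicate 1, 2 or 3 (adjusted p = 0.0598, 0.0723 and 0.0737) and Hbb-bt without Cre-negative replicate 1 (adjusted p = 0.0975). Without Cre-positive replicate 3, Hbb-bs and Hba-x were called as well (adjusted p = 0.0407 and 0.0482), while Alas2 kept its call when any single library was left out, with a fold of 4.44 without Cre-positive replicate 2. Without the intermediate libraries the adjusted p was 0.238 for Hba-a1, 0.1299 for Hbb-bt and 0.09802 for Alas2, so that none of the 3 was called, beside 0.628% of all genes called higher.

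At P10 and in the adult none of the 8 genes passed the limma test between the genotypes, where 0.419% of all genes were called higher and 1.03% lower at P10, and 3.06% higher and 8.92% lower in the adult. At an unadjusted p under 0.05 the count was 0 of 8 at both ages, beside 12.9% of all genes at P10 and 25.4% in the adult. With edgeR on the recovered reads 0 were called as well, beside 0.354% and 12.3% of all genes by that test. The log2 differences of the adult globins were -0.13 (Hba-a1), -0.08 (Hbb-bs) and -0.13 (Hbb-bt) at P10 and -0.28, -0.30 and -0.55 in the adult (smallest adjusted p = 0.201), and with RLE size factors or edgeR the values of all 3 at P10 and of Hba-a1 and Hbb-bs in the adult were above 0 (0.0572 to 0.117, not called). Alas2 had -0.27 and -0.28 (adjusted p = 0.854 and 0.733), and 0.00921 to 0.0849 in the adult with quantile normalization, RLE size factors or edgeR. For Slc4a1 the adult Cre-positive libraries all lay below the Cre-negative ones (log2 difference -0.94, adjusted p = 0.347), as did 21.7% of all genes, and a fit of the compared groups alone called it (adjusted p = 0.0411). Hbb-y and Hbb-bh1 were at 0 in every diaphragm library of these ages. The genotype difference changed between E15.5 and P0.5 for 2 genes, Hbb-bh1 and Alas2, beside 9.9% of all genes called in either direction, and became smaller between P0.5 and P10 for Alas2, beside 6.12% of all genes. None of these 3 changes held without the intermediate libraries, and that of Alas2 from E15.5 to P0.5 was lost in 7 of the 12 fits that left out 1 library as well. Hbb-bh1 was at 0 in both genotypes at P0.5, so its change restates the E15.5 difference.

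**Figure D4:**
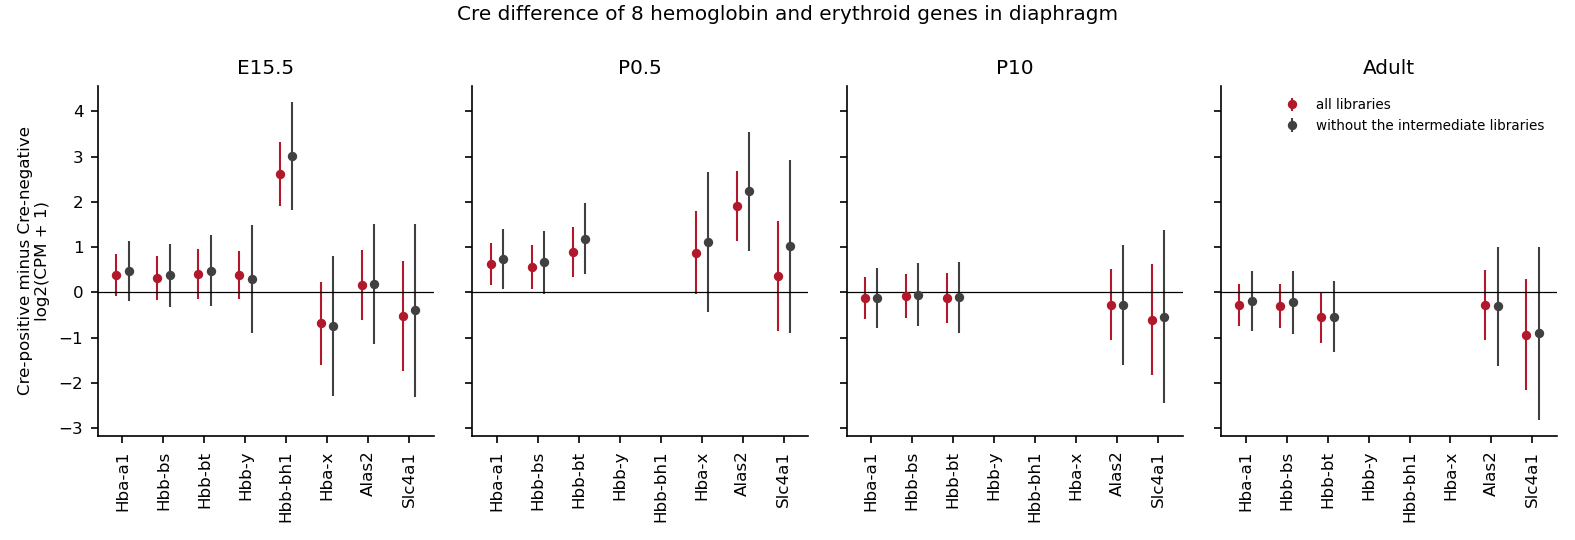
Difference between Cre-positive and Cre-negative diaphragm in log2(CPM + 1), positive where Cre-positive is higher, for the 8 genes at 4 ages, with 95% confidence intervals, over all libraries (red) and without the intermediate libraries (grey). Genes at 0 in both groups are left out. Hbb-bh1 at E15.5 and Alas2 at P0.5 have the largest differences, and the intervals are wider without the intermediate libraries.

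Markers of hepatocytes and myeloid cells moved with the globins between the genotypes at P0.5. Platelet, macrophage and endothelial genes went both ways there by group mean. Over all genes 12.1% were called higher at that age, and 0.628% without the intermediate libraries. All 8 hepatocyte genes were higher in Cre-positive diaphragm at that age (4 without the intermediate libraries), and their sum was 1688, 10529.8 and 1254 CPM in the 3 Cre-positive libraries against 78.2, 127 and 118 CPM in the Cre-negative ones, where Apoc3 was at 0. Of 7 myeloid genes 6 were higher (2 without the intermediate libraries), with sums of 213, 978 and 174 CPM against 30.99, 159 and 131 CPM, and Elane and Ngp at 0 in Cre-negative diaphragm. Replicate 2 was the highest Cre-positive library for both lists, as it was for the globins. At E15.5 none of the 8 hepatocyte genes passed the test between the genotypes, and their sums were 12893 to 14394 CPM in Cre-positive and 16724 to 18256 CPM in Cre-negative diaphragm, against 31.5 to 72.6 CPM in spinal cord. The fall of the globins from E15.5 to P0.5 came with a fall of 4 hepatocyte genes in Cre-positive and 8 in Cre-negative diaphragm. All 7 myeloid genes fell in both, while 18.0% of all genes were called lower in Cre-positive and 30.2% in Cre-negative diaphragm. In the adult 7 of 8 hepatocyte genes were higher in Cre-positive diaphragm, beside 3.06% of all genes, and 0 were without the intermediate libraries. Their sums were 146 to 309.9 against 9.08 to 29.5 CPM, at an age at which no globin passed the test. The part of these other cell types in the globin differences was not tested.

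The rest of the erythroid program was followed in lists of genes by role, of which the counts are read against the share of all genes given above. Between E15.5 and P0.5 most genes of each erythroid list fell in diaphragm. Like the embryonic globins, several of them passed the filter through E15.5, where they were high. Klf1 reached 1 CPM in diaphragm at that age alone, and Gata1, Nfe2 and Rhd there and in few other libraries. Such falls, also within the counts and medians below, were nearly fixed in advance. Of 10 genes for erythroid transcription factors and the erythropoietin receptor, 9 fell in each genotype (6 in Cre-positive and 9 in Cre-negative diaphragm without the intermediate libraries), with a median log2 difference of -2.72 in Cre-positive and -3.44 in Cre-negative diaphragm. Klf1, the factor that switches on adult β globin, averaged 0.297 ± 0.267 CPM at P0.5 and 35.3 ± 14.02 CPM at E15.5 in Cre-positive diaphragm (SD, n = 3; adjusted p = 1.34e-09). Gata1, the master factor of red cell genes, averaged 0.9198 ± 1.14 CPM at P0.5 and 19.9 ± 1.64 CPM at E15.5 there (adjusted p = 3.88e-08), and in Cre-negative diaphragm it was at 0 at P0.5 against 17.2 ± 6.16 CPM at E15.5. Nfe2, which acts on the globin loci, fell as well, to 0.682 ± 0.5905 CPM at P0.5 in Cre-positive diaphragm, against 55.2 ± 7.07 CPM at E15.5.

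Among 12 red cell membrane and skeleton genes 9 fell in each genotype, or 6 in Cre-positive and 8 in Cre-negative diaphragm without the intermediate libraries (medians -2.78 and -3.63). Rhd, a blood group membrane protein, averaged 3.11 ± 4.67 CPM at P0.5 against 94.9 ± 45.6 CPM at E15.5 in Cre-positive diaphragm (adjusted p = 9.47e-08). Of 11 tested red cell enzymes and chaperones, 11 fell in Cre-positive and 9 in Cre-negative diaphragm (5 and 7 without the intermediate libraries), among them Car2, a carbonic anhydrase, at 0.506 ± 0.458 CPM at P0.5 against 278 ± 89.5 CPM at E15.5 in Cre-negative diaphragm. Heme synthesis enzymes outside Alas2 fell in 7 of 8 cases in Cre-positive and 6 of 8 in Cre-negative diaphragm (5 and 6 without the intermediate libraries), for example Cpox, coproporphyrinogen oxidase, at 23.1 ± 20.6 CPM at P0.5 against 189 ± 46.7 CPM at E15.5 in Cre-positive diaphragm (adjusted p = 3.55e-06). Iron uptake and transport genes fell in 5 and 6 of 8 cases (1 and 4 without the intermediate libraries), with Slc25a37, the mitochondrial iron importer mitoferrin, at 2.96 ± 2.196 CPM at P0.5 against 101 ± 12.8 CPM in Cre-positive diaphragm (adjusted p = 3.24e-08).

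Against spinal cord at E15.5 most genes of each list were higher in diaphragm, as were most of the 8 genes. Higher in Cre-positive diaphragm were 9 of 10 factor and receptor genes, 10 of 12 membrane genes, 10 of 11 enzymes and chaperones, 6 of 8 heme enzymes and 6 of 8 iron genes. When the intermediate libraries were left out, these counts were 9, 9, 9, 6 and 4. The 10 membrane genes take in some whose group mean, unlike that of the globins, did not fall from E15.5 to P0.5 in Cre-positive diaphragm. Klf1 averaged 35.3 ± 14.02 CPM in diaphragm and 0.249 ± 0.249 CPM in spinal cord (adjusted p = 3.74e-14), and Hemgn, a nuclear protein of red cell precursors, 69.98 ± 19.4 and 0.115 ± 0.0184 CPM (adjusted p = 7.00e-15). Both stayed under 1 CPM in every spinal cord library and passed the filter through diaphragm. Calls of such genes, also within the counts above, were nearly fixed in advance. In spinal cord itself between E15.5 and P0.5 1 of 5 tested factor and receptor genes and 3 of 7 tested membrane genes fell, beside 44.4% of all genes, and 3 factor and receptor genes and 2 membrane genes rose, beside 27.9% of all genes. Among those that rose there was Bcl11a, which silences embryonic globin genes in red cells and is also expressed in neurons, at 32.2 ± 2.397 CPM at P0.5 against 22.9 ± 1.94 CPM at E15.5 (adjusted p = 0.000157).

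**Figure D5:**
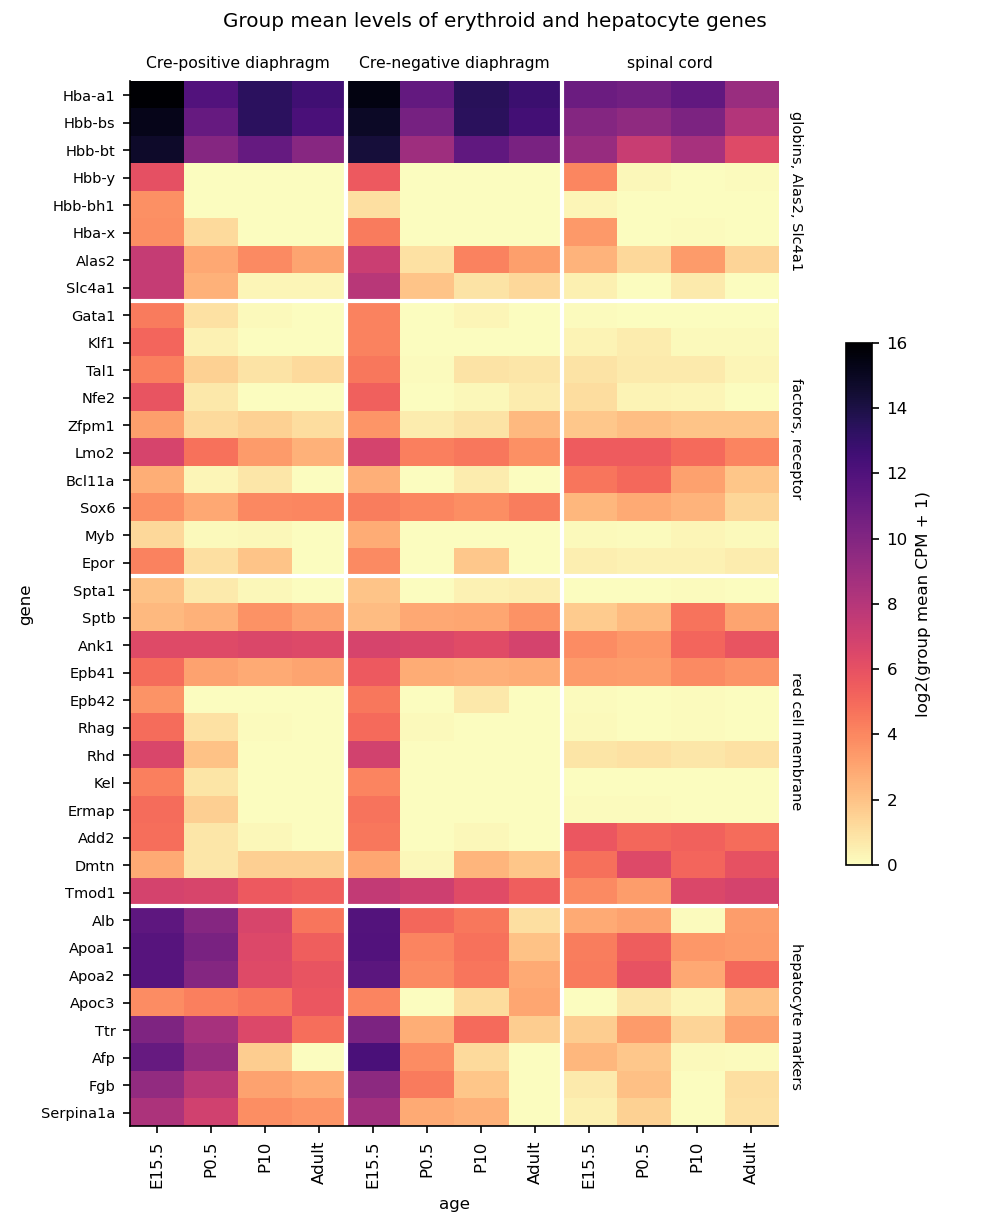
Heat map of log2 of the group mean CPM plus 1 for the 8 genes, erythroid transcription factors and the erythropoietin receptor, red cell membrane genes and hepatocyte markers (rows), in Cre-positive diaphragm, Cre-negative diaphragm and spinal cord at 4 ages each (columns). The E15.5 columns of both diaphragm genotypes are the darkest in most rows, and hepatocyte rows stay dark at P0.5 only in Cre-positive diaphragm.

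Between the genotypes genes of these lists passed the test in both directions, to be read against the 4.88% and 12.1% of all genes called higher at E15.5 and P0.5 and the 6.11% and 15.7% called lower. At E15.5 Klf1 averaged 35.3 ± 14.02 CPM in Cre-positive and 16.4 ± 8.71 CPM in Cre-negative diaphragm (adjusted p = 0.0342), while Myb, a factor of immature blood cells, averaged 1.45 ± 0.277 and 5.74 ± 1.79 CPM (adjusted p = 0.000217). Blvrb, biliverdin reductase B, was the 1 enzyme gene that was higher, at 996 ± 293 against 415 ± 33.3 CPM (adjusted p = 0.02997). Alas1, the synthase that starts heme synthesis outside red cells, was lower at both E15.5 (9.04 ± 1.92 against 21.6 ± 5.41 CPM, adjusted p = 0.00779) and P0.5 (12.1 ± 3.598 against 22.9 ± 5.096 CPM, adjusted p = 0.0183). At P0.5 Cre-positive diaphragm had higher levels of 5 of 11 enzymes and chaperones, 2 of 12 membrane genes and 1 of 10 factor and receptor genes, and lower levels of Xpo7 among the enzymes and chaperones and of the factor gene Sox6. The heme enzyme gene Alad and the iron list gene Slc25a38 were higher, and Tfrc, the transferrin receptor, was lower (17.5 ± 15.04 against 39.7 ± 1.16 CPM, adjusted p = 0.00686). Without the intermediate libraries 1 of these calls held, that of Car2, and none of those at E15.5 did. Car2 averaged 18.8 ± 13.5 CPM in Cre-positive and 0.506 ± 0.458 CPM in Cre-negative diaphragm (adjusted p = 7.39e-05).

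Outside the 8 genes and the near-identical copies, Hbq1b, a θ globin gene of the α cluster, fell as well. It averaged 0.638 ± 0.113 CPM at P0.5 and 42.3 ± 27.3 CPM at E15.5 in Cre-positive diaphragm (adjusted p = 2.23e-09), and it was at 0 at P0.5 against 43.8 ± 8.17 CPM at E15.5 in Cre-negative diaphragm. Hbq1b reached 1 CPM in diaphragm at E15.5 alone, so its fall was nearly fixed by the filter. Mb, the oxygen store of muscle, went the other way, with 1236 ± 319 CPM at P0.5 against 50.3 ± 18.6 CPM at E15.5 in Cre-positive diaphragm (adjusted p = 5.61e-13). In the adult it stood at 13337 ± 22.2 CPM in Cre-positive diaphragm against 0.253 ± 0.133 CPM in spinal cord.

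Of the 5 genes most like Hba-a1 over the group means 4 were globins, and of the 5 most like it over single libraries 2 were. Over the 12 group means of log2(CPM + 1), among 14984 genes, Pearson's r with Hba-a1 was 0.998 for Hba-a2, 0.988 for Hbb-bs, 0.985 for Hbb-bt, 0.970 for Hbb-b1 and 0.970 for Gmfg, a gene of blood cells. It was 0.922 for Alas2, 0.799 for Slc4a1 and 0.614 for Hbb-y. Over the deviations of the 36 libraries from their group means, r with Hba-a1 was 0.978 for Hba-a2, 0.959 for Hbb-bs, 0.854 for Slc16a1, a monocarboxylate transporter, 0.843 for Alg13 and 0.838 for Sla, the 5 highest. It was 0.824 for Hbb-bt, 0.688 for Alas2 and -0.44 for Hbb-y. For Hbb-y the closest of all genes over the group means was Hba-x, with r = 0.976. These correlations describe points that share the scaling of their library, and the group means also share age and tissue.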

How the data were processed

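RNA from an HA purification was measured in 36 libraries, 3 in each of 12 groups set by the labels' tissue, genotype and age. Per the labels, RNA was extracted with a column kit and sequenced by BGI. The values are CPM as deposited by the authors, made with Bowtie2 2.2.5, RSEM 1.2.12 and mm10 per the submitters' processing notes, with order and settings not given in the sources used here. Each column sums to 1000000. Whole reads were recovered from the step of 1 read in each library (100% of values within 0.1 of a whole number). For the P0.5 Cre-positive replicate 3 library the step is near a round value, so its depth is an estimate. The table had 0 columns of other samples.

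The planned design was written for other normalized values and was applied to CPM. limma 3.58.1 (lmFit, eBayes with trend and robust options, R 4.3.3) was run on log2(CPM + 1). A gene was tested where 3 or more libraries of the fit reached 1 CPM. The fits held 24 diaphragm libraries (13853 genes), 12 Cre-positive diaphragm with 12 spinal cord libraries (14831 genes), and 12 spinal cord libraries (13373 genes). Each fit shares 1 variance per gene over its groups. Calls have a Benjamini-Hochberg adjusted p under 0.05 over all genes tested, and all adjusted p-values are from limma unless edgeR is named. A log2 difference is that of mean log2(CPM + 1), while a fold is the ratio of mean CPM. The scripts were tested on simulated data.

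Alternatives were a pseudocount of 0.1, no filter on low values, quantile normalization, RLE size factors, edgeR 4.0.16 (quasi-likelihood, TMM) on the recovered reads, the compared groups alone, replicate number as a block, leaving out each library, and leaving out the 12 intermediate libraries. The replicate numbers did not pair the samples: in 0 of 17 comparisons did every same-numbered pair have correlated deviations (r over 0.1). The 8 genes and the 13 lists (106 genes, 105 in the table) were chosen with earlier results of these data known, and 1 further gene of the membrane list is not reported here. From each list up to 3 called genes with the largest difference and a mean of at least 1 CPM could be named, and 5 genes by likeness to Hba-a1. Other named genes are the 8 genes, their near-identical copies, marker genes at 0 and Chat. Python 3.11.15, numpy 2.4.6 and scipy 1.17.1 were used.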

Additional observations from a re-analysis of the deposited data

Results flagged for a closer look

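These results are changes of a difference from one age to the next, each tested as a contrast within the limma fit, and each passed over all genes (log2 scale, with SE and adjusted p). The neighbouring changes share the libraries of the age between them.

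The difference of Cre-positive diaphragm minus spinal cord narrowed from E15.5 to P0.5 for 7 genes. For Hba-a1 it changed by -3.79 (SE 0.33, adjusted p = 4.99e-08), for Hbb-bs by -3.72 (SE 0.34, adjusted p = 6.92e-08) and for Hbb-bt by -3.04 (SE 0.36, adjusted p = 1.90e-06). The embryonic genes changed by -2.13 (Hbb-y, SE 0.25, adjusted p = 2.05e-06) and -3.25 (Hbb-bh1, SE 0.34, adjusted p = 4.93e-07). Both stayed under 1 CPM in either tissue at P0.5, so their changes largely restate the E15.5 difference and were nearly fixed in advance. Alas2 changed by -3.36 (SE 0.44, adjusted p = 5.72e-06) and Slc4a1 by -5.00 (SE 0.63, adjusted p = 4.15e-06). Without the intermediate libraries all 7 calls held, with adjusted p between 0.00127 and 0.0112. With edgeR on the recovered reads 5 of the 7 were called, and the changes of Hbb-bh1 (adjusted p = 1) and Slc4a1 (-1.97, adjusted p = 0.403) were not.

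From P0.5 to P10 the tissue difference widened by 0.89 for Hba-a1 (SE 0.33, adjusted p = 0.0345) and by 1.60 for Hbb-bs (SE 0.34, adjusted p = 0.000641). For Slc4a1 it changed by -2.29 (SE 0.63, adjusted p = 0.00556). From P10 to the adult it widened by 1.32 for Hba-a1 (SE 0.33, adjusted p = 0.00482) and by 0.97 for Hbb-bs (SE 0.34, adjusted p = 0.0319). None of these 5 calls held without the intermediate libraries, where the adjusted p was 0.0667 to 0.329. The first change of Hba-a1 was lost in 9 of 12 fits without 1 library (adjusted p 0.0537 to 0.0872), all but those without replicate 2 of Cre-positive diaphragm at P0.5 or P10 or of spinal cord at P10. The second of Hbb-bs was lost in 7 of 12 (adjusted p 0.05 to 0.0909), those without Cre-positive replicate 2 or 3 at P10 or 1 in the adult, or spinal cord replicate 2 or 3 at either age.

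The difference of Cre-positive minus Cre-negative diaphragm changed between E15.5 and P0.5 by -2.62 for Hbb-bh1 (SE 0.48, adjusted p = 0.00178), which was at 0 in both genotypes at P0.5, and by 1.75 for Alas2 (SE 0.53, adjusted p = 0.0386). Between P0.5 and P10 it changed by -2.17 for Alas2 (SE 0.53, adjusted p = 0.0123). None of these 3 held without the intermediate libraries (adjusted p 0.341, 0.574 and 0.580). The change of Alas2 from E15.5 to P0.5 was lost in 7 of 12 fits without 1 library (adjusted p 0.051 to 0.0918), those without any E15.5 library but Cre-positive replicate 2, or without P0.5 Cre-positive replicate 2 or Cre-negative replicate 1.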

How the results depend on the processing

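Over 101 differences of the 8 genes (differences between groups and changes of a difference), the alternatives gave 1499 values. Of these 1379 kept their side of the threshold without a change of sign, 94 lost the call and 7 gained one. Values at 0 within rounding were counted among the 1379, as for the genotype differences of Hba-a1, Hbb-bs and Hbb-bt at E15.5. The remaining 19 changed sign, all of them for genotype differences called in neither fit. At P10 the changes of sign were Hba-a1 (0.0671 with RLE size factors, 0.0823 with edgeR), Hbb-bs (0.115, 0.117) and Hbb-bt (0.0633, 0.0709). The adult ones were Hba-a1 (0.0785, 0.0779), Hbb-bs (0.0572, 0.0627) and Alas2 (0.0235, 0.0849, and 0.00921 with quantile normalization). Without 1 library the range took in 0 for Alas2 at E15.5 (-0.0346 to 0.293), Slc4a1 at P0.5 (-0.522 to 0.909), Hba-a1 and Hbb-bs at P10 (-0.297 to 0.00848 and -0.262 to 0.0638) and adult Alas2 (-0.644 to 0.0740). Leaving out the intermediate libraries moved the most, with 25 of 101 differences losing their call. Under it the number of genes called was 0 instead of 1 between the genotypes at E15.5 and 0 instead of 3 at P0.5, 1 instead of 4 from P0.5 to P10 in Cre-positive diaphragm, and 0 instead of 3 from P10 to the adult in either genotype. For the changes of a difference it was 0 instead of 2 (genotype, E15.5 to P0.5), 0 instead of 1 (genotype, P0.5 to P10), 0 instead of 3 (tissue, P0.5 to P10) and 0 instead of 2 (tissue, P10 to adult). This setting has fewer samples, and the part of that in the lost calls was not tested.

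The edgeR test on recovered reads called 0 genes instead of 1 between the genotypes at E15.5, 5 instead of 3 at P0.5, 4 instead of 1 for the change of the genotype difference from P0.5 to P10, and 5 instead of 2 for that of the tissue difference from P10 to the adult. RLE size factors called 4 for each of those changes. Quantile normalization called 2 instead of 1 for the first of them, and a pseudocount of 0.1 called 5 instead of 3 for the tissue change from P0.5 to P10. Fitting the compared groups alone called 0 instead of 3 between the genotypes at P0.5, 1 instead of 0 in the adult, and 1 instead of 2 for the genotype change from E15.5 to P0.5. It gave no value for 5 of 101 differences, of genes under the filter in those groups. The cause of these shifts was not tested. Between the genotypes at P0.5 the median log2 difference of all genes was -0.01, and 0.21 with RLE size factors. The fall of Hba-a1 from P10 to the adult in Cre-positive diaphragm lost its call with RLE size factors (adjusted p = 0.111) and edgeR (0.14).

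Leaving out 1 library at a time gave 1 to 5 called genes between the genotypes at P0.5. It gave 1 to 3 from P10 to the adult in Cre-negative diaphragm, 1 to 2 for the genotype change from E15.5 to P0.5 and from P0.5 to P10, and 1 to 4 for the tissue change from P10 to the adult. The fall of Hbb-bh1 from E15.5 to P0.5 in Cre-negative diaphragm was lost in 5 of 6 such fits, with quantile normalization (adjusted p = 0.654) and with RLE size factors (0.0794).

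With the replicate block 100 of 101 differences stayed on their side of the threshold, and the rise of Alas2 from P0.5 to P10 in Cre-positive diaphragm was lost (log2 difference 1.11, adjusted p = 0.0562). Across 51 same-numbered pairs the correlation of deviations was -0.0959 to 0.109. After birth Hbb-y had at most 25 reads in a library and Hbb-bh1 none, so differences in them were not detectable at this depth.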
